A study of Rattus norvegicus with 84 samples.

Results

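The genes described here are 10 ligands, receptors and a secreted partner of brain-derived neurotrophic factor (BDNF) and glial cell line-derived neurotrophic factor (GDNF): Bdnf, Ntrk2, Ntf3, Ntrk3, Ngfr, Vgf, Gdnf, Gfra1, Gfra2 and Ret. They were taken by name from a table of counts for 41919 genes, in which 10 of 10 were found and 10 of 10 passed the filter on low counts over all libraries. Total RNA came from the Core and the Shell of the nucleus accumbens of wild-type Long-Evans rats, a striatal region that serves motivation and the seeking of rewards. The study set cocaine withdrawal beside extinction, and its 12 groups crossed 2 subregions with 3 conditions (Ext, HC, Ctx) and 2 drugs (Coc, Sal), with 7 libraries each and 84 in all. Ext stands for extinction and Coc for cocaine, as the study's own text allows. HC, Ctx and Sal are not spelled out in the labels and are kept as written. Sex, age, the length of abstinence and which libraries share an animal are not given, so p-values measure the spread between libraries.

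BDNF is made as a precursor, cut to its mature form and released from dense-core vesicles by active neurons, and it signals through the tyrosine kinase TrkB, the product of Ntrk2. Neurotrophin-3, from Ntf3, signals mainly through TrkC, from Ntrk3, and Ngfr encodes p75, a receptor that binds all neurotrophins and their precursors. Vgf is a secreted granule protein, cut into peptides, whose gene is switched on by neurotrophins and by activity. GDNF is a dimer that is held by the anchored co-receptor GFRα1 (Gfra1) and passes its signal through the kinase Ret, while GFRα2 (Gfra2) prefers neurturin. In the striatum much of the BDNF protein arrives along axons from the cortex and midbrain, so that little Bdnf RNA is made locally, and GDNF made by striatal interneurons is carried back to dopamine neurons.

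Of the 10 genes, 6 had start sites in the RefSeq promoter table for the rat build GRCr8, with 13 start sites in all (6 for Bdnf and 3 for Ntf3). The deposited counts use another build, mRatBN7.2. Ntrk2, Ntrk3, Ngfr and Gfra2 had none. The 250 bases before the start are printed for Vgf, Gdnf and Gfra1. These were the 3 genes called higher in Shell than in Core, at an adjusted p under 0.05, under most ways of fitting the data. Capitals mark, in Vgf, the full cAMP response element TGACGTCA and the TATA box TATAAA with its copy on the opposite strand. In Gdnf they mark the shorter element TGACG, found on the opposite strand, and TATAAA. In Gfra1 they mark the Sp1 box GGGCGG. The windows lie at chr12:25277021-25277270 (minus strand) for Vgf, chr2:58621077-58621326 (plus strand) for Gdnf and chr1:267555812-267556061 (minus strand) for Gfra1, all 5′ to 3′ in the gene's own direction.
Vgf: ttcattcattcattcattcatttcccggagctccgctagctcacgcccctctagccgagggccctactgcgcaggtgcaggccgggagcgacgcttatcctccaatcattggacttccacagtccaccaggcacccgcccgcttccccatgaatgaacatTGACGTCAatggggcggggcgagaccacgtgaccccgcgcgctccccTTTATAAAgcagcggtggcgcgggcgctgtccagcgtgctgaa
Gdnf: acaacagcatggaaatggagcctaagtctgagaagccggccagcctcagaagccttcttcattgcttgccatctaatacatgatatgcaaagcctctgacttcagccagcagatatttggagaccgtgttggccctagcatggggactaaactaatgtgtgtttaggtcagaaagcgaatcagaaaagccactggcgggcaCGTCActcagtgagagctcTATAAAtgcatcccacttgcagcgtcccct
Gfra1: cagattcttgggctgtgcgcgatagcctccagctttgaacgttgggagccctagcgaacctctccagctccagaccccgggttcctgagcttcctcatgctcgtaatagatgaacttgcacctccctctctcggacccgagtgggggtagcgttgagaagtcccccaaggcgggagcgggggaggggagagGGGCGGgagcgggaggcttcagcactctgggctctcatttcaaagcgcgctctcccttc

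The full element TGACGTCA, the binding site of the transcription factor CREB, starts 90 bases before the Vgf start, on a stretch that reads the same on both strands. On both strands it occurred in 1.59% of 33469 promoter windows of this length, and among the 6 genes only Vgf held it. The shorter TGACG, which is contained in the full element, occurred in 18.2% of windows and in those of Bdnf, Vgf and Gdnf. TATAAA occurred in 12.9% of windows and in those of Bdnf, Vgf and Gdnf, and GGGCGG in 30.5% of windows and in those of Bdnf, Ntf3, Vgf and Gfra1. These are matches of letters, and no binding was measured.

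The libraries held 13.6 to 22.5 M counts each (M, mega). Counts on 2033 olfactory and vomeronasal receptor genes, which the accumbens is not known to use, gave each library's background: counts per base on these genes, multiplied by the length of all genes, came to 17.5% ± 11.5 (SD, n = 41) of all counts in Core without one library and 22.7% ± 8.48 (SD, n = 42) in Shell. The exception, Core Ctx_Coc 17-F, reached 96.1%, and results that rest on it are given with and without it. Of the markers of accumbens cells, those of projection neurons had counts in every library, with a summed level of 644.6 to 2776 CPM (counts relative to each library's own total, without TMM) over 5 genes in Core and 1221 to 2846 in Shell. Markers of every other cell type listed had counts in every library too. Among these were choroid plexus (3.32 to 61.2 CPM in Core) and blood (8.70 to 35.5 CPM in Core). Counts in every library thus do not single out accumbens cells. All 6 oligodendrocyte markers had less RNA in Shell (median log2 fold change -1.79) with summed levels of 370.8 to 5336 CPM in Core and 654 to 1337 in Shell. All 4 markers of cholinergic interneurons were higher in Shell, with a median log2 fold change of 0.60 and summed levels of 15.7 to 87.9 CPM in Core and 28.3 to 73.6 in Shell. In bulk tissue, fewer cells of a type and less RNA per cell cannot be told apart.

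Levels were compared between genes as the authors' FPKM (counts scaled to the library's total and to a gene length that spans introns). On this scale Vgf was the highest of the 10, with a median FPKM of 5.59 over 84 libraries. The receptors Ntrk2, at 1.15, and Ntrk3, at 0.975, came next. The other 7 lay close together, at 0.417 for Gdnf, 0.377 for Gfra2, 0.373 for Ret, 0.363 for Ngfr, 0.339 for Gfra1, 0.305 for Ntf3 and 0.192 for Bdnf. This order rests on the length, which was 7811 bases for Vgf, 311308 for Ntrk2 and 387378 for Ntrk3. In counts, not scaled to length, the medians were 6382 for Ntrk3, 6252 for Ntrk2 and 774 for Vgf. The other 7 then ran from 1329 for Gfra1, above Vgf, to 111 for Ngfr. The receptor genes that served as background had a median FPKM of 0.181 (0.013 to 0.789), the same quantity on the same scale. The Bdnf median lay next to that of the receptor genes. The medians of Vgf, Ntrk2 and Ntrk3 stood above the highest value of the receptor genes in any library. The lowest single value of Ntrk3, 0.754, was below that highest value. Whether Bdnf reads on one strand include those of its antisense gene cannot be told, since the strand setting of the counting is not given.

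**Figure D1:**
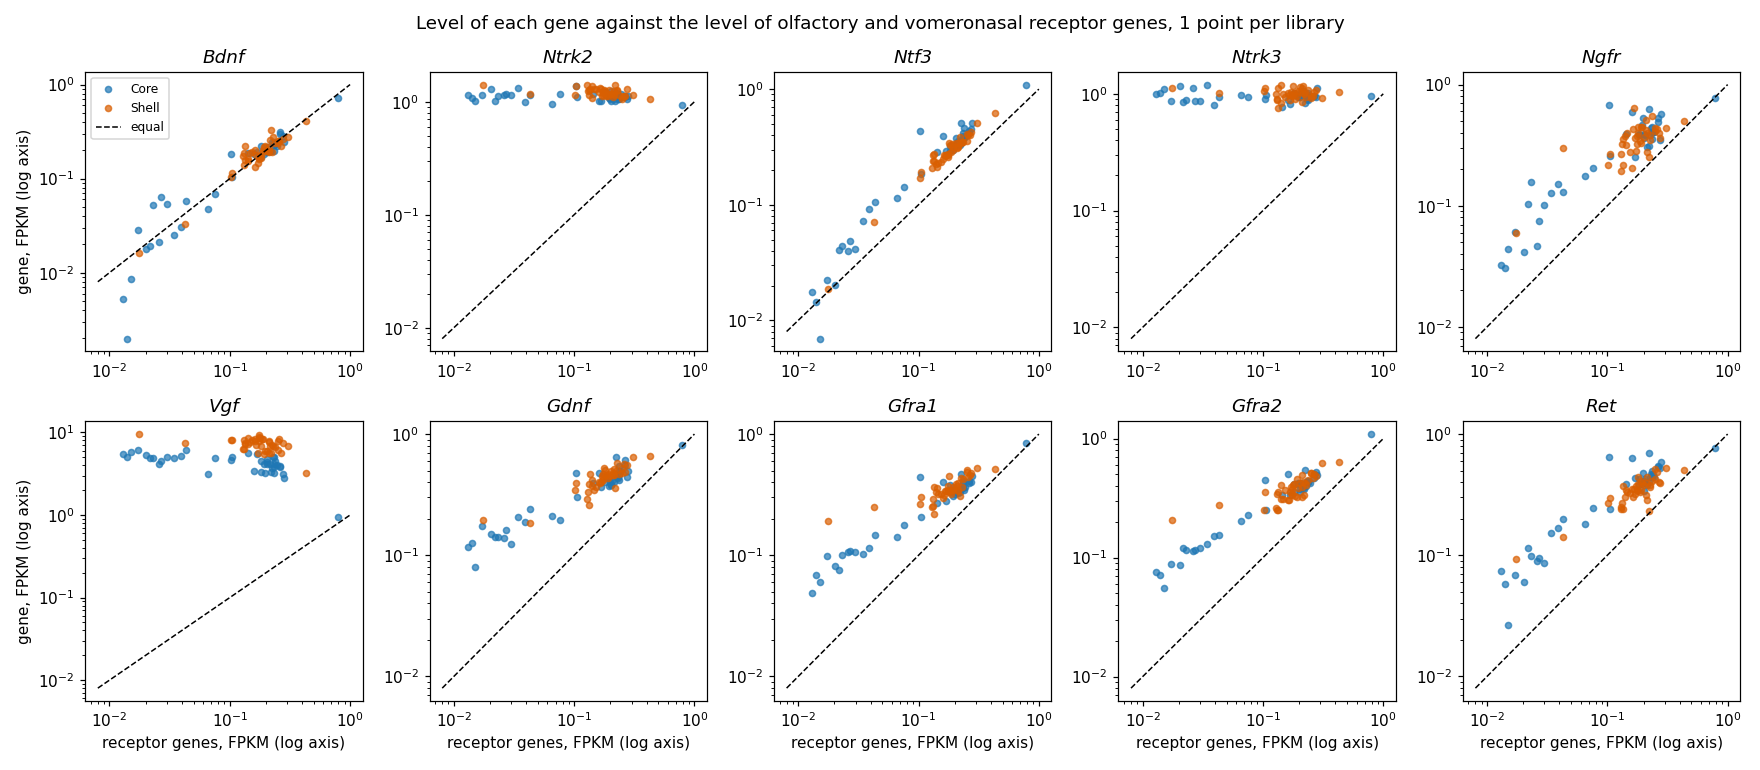
FPKM of each gene (vertical, log axis) against the FPKM of the receptor genes that serve as background (horizontal, log axis), 1 point for each of 84 libraries, Core in blue and Shell in orange, with a dashed line where both are equal. Bdnf lies along the line, Ntf3, Ngfr, Gdnf, Gfra1, Gfra2 and Ret rise with the background above it, and Vgf, Ntrk2 and Ntrk3 stay level, apart from Vgf in Core Ctx_Coc 17-F (0.947).

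The share of a gene's counts that the background rate accounts for, if such counts fall evenly along genes, was computed for each library. For Bdnf the median share was 99.7% (highest 706.7%) and it was over 100% in 41 of 84 libraries. It was 61.8% for Ntf3, 52.3% for Gfra1, 48.9% for Ngfr, 48.5% for Gfra2, 48.4% for Ret and 41.6% for Gdnf. For the receptors it was 18.5% for Ntrk3 and 15.6% for Ntrk2, and for Vgf 2.71%. A rate taken from the 118 receptor genes of at least 10000 bases, chosen after seeing the data, gave 78.7% for Bdnf, 33.1% for Gdnf and 2.20% for Vgf. Bdnf counts could thus hardly be told from the background, those of the GDNF family genes in part, and those of Vgf and both Trk receptors for the most part.

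In the 10 libraries of lowest background, of which 9 were Core and 1 was Shell and in which the background was 1.58% to 3.29% of counts, Bdnf had 2 to 69 counts (median 15.5) and a median FPKM of 0.0185. Ntf3 had 9 to 72 counts there (median 29.5), with a median FPKM of 0.0213, Ngfr 11 to 58 (0.0531), Ret 21 to 85 (0.0818) and Gdnf 39 to 93 (0.142). Gfra1 had 216 to 836 counts and a median FPKM of 0.0905, and Gfra2 96 to 349 and 0.102. All 7 medians were below those over 84 libraries. Vgf kept 452 to 1376 counts and a median FPKM of 5.18, Ntrk2 5091 to 8127 and 1.14, and Ntrk3 5509 to 9026 and 1.01, close to their medians over all libraries. Since 9 of these 10 libraries were Core, the medians over Core alone are given too. They were lower, at 4.52 for Vgf, 1.11 for Ntrk2 and 0.955 for Ntrk3. Across 84 libraries, log2 FPKM correlated with that of the background at Pearson's r of 0.97 for Ntf3, 0.95 for Bdnf, Gdnf, Gfra1 and Gfra2, 0.93 for Ret and 0.91 for Ngfr, against -0.02 for Ntrk3, -0.08 for Ntrk2 and -0.16 for Vgf. Both values of a point come from 1 library and 1 total and the subregions are pooled, so this is a description of the libraries. After scaling by TMM, which sets libraries to a common level over most genes, the same r was -0.87 for Ntrk2, -0.90 for Ntrk3 and -0.57 for Vgf.

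Vgf differed between the subregions by more in FPKM than the other 9 genes. Its FPKM was 4.38 ± 1.01 (SD, n = 42) in Core, with a lowest value of 0.947, a median of 4.52 and a highest of 6.15, and 7.25 ± 1.24 (SD, n = 42) in Shell, with 3.19, 7.45 and 9.57. In FPKM, 34 of the 42 Shell libraries lay above every Core library and 41 above the Core median. On the TMM-scaled log2 CPM scale of the tests, Vgf ranged from 1.86 to 6.36 in Core and from 4.07 to 6.76 in Shell, and 2 of 42 Shell libraries lay above every Core library. The lowest Core value belonged to the library 17-F, without which Core ranged from 2.80 to 6.15 (mean 4.46 ± 0.866, SD, n = 41). The lowest Shell value belonged to Shell Ext_Sal 12-F, whose background was 52.4% of counts.

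The median Shell FPKM of Vgf was higher in every one of the 6 combinations of condition and drug. In HC_Sal the 7 Core libraries ran from 3.88 to 6.09 FPKM (median 4.72) and the 7 Shell libraries from 6.92 to 9.29 (8.21). In HC_Coc Core ran from 3.27 to 6.15 (4.39) and Shell from 6.32 to 9.57 (7.95). The 2 subregions did not overlap in FPKM in either of these, but in log2 CPM they did, with Core at 4.57 to 5.95 and Shell at 5.63 to 6.16 in HC_Sal, and 4.45 to 6.36 and 5.54 to 6.76 in HC_Coc. In Ctx_Sal the values were 3.36 to 5.08 (4.49) and 5.59 to 7.55 (6.29), and in Ctx_Coc 0.947 to 5.43 (4.00) and 5.42 to 8.28 (7.12) with ranges that met at their ends. In Ext_Sal they were 3.12 to 5.12 (4.11) and 3.19 to 8.31 (7.07), overlapping through the library 12-F. In Ext_Coc they were 4.09 to 5.87 (4.54) and 5.58 to 8.28 (7.44), overlapping at the ends.

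**Figure D2:**
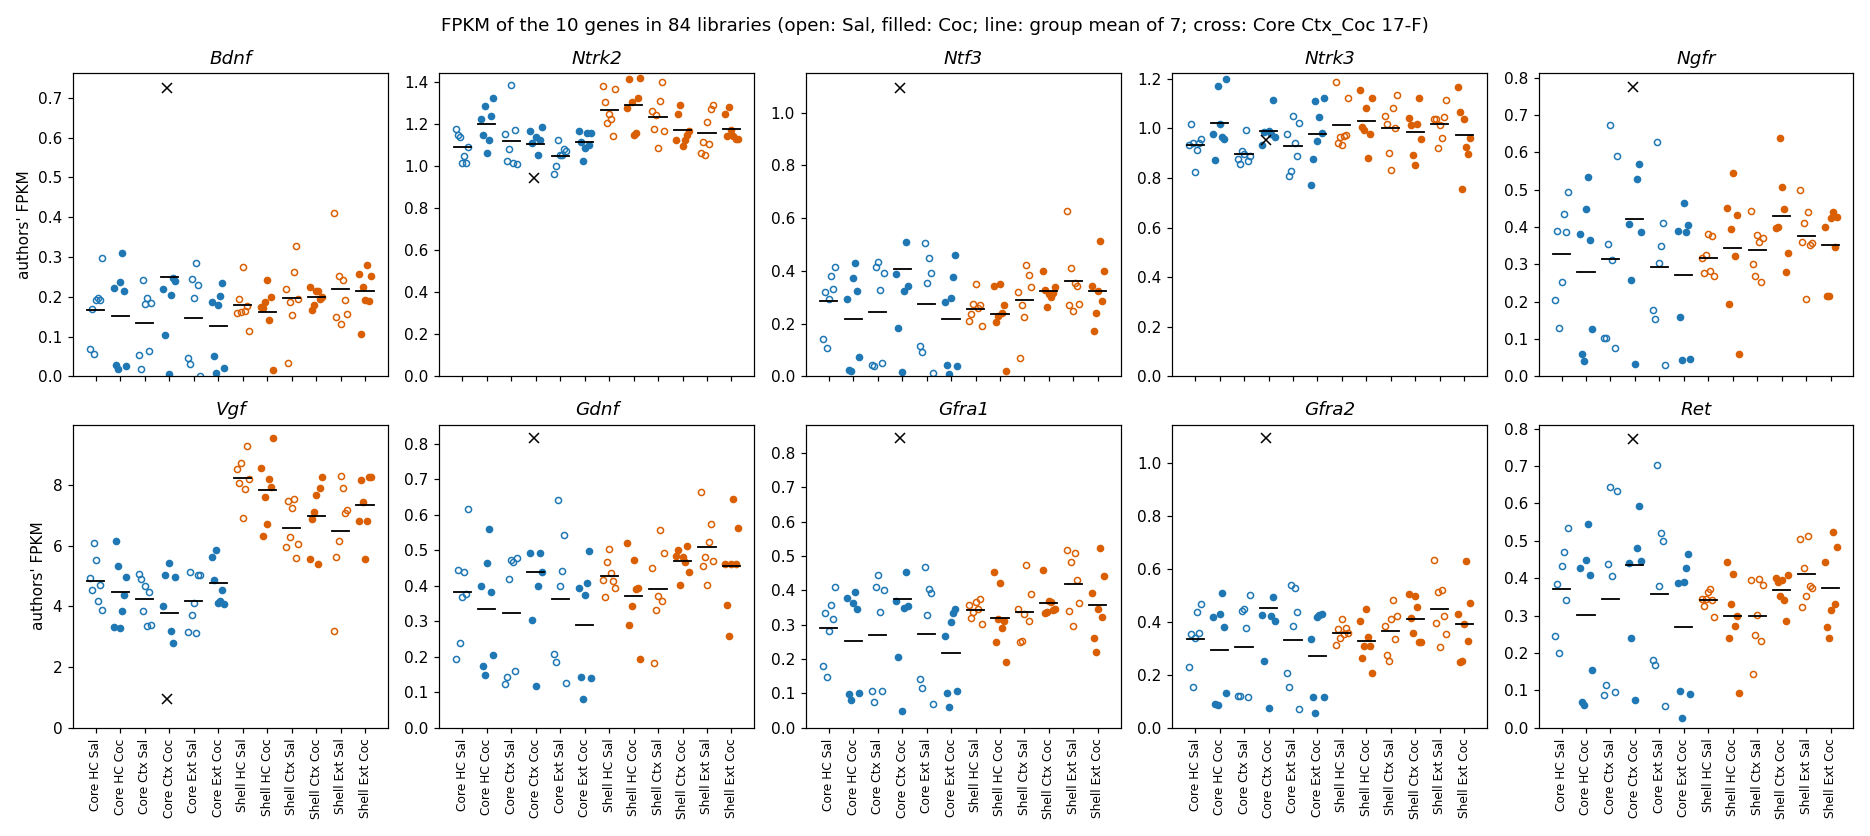
The authors' FPKM of each of the 10 genes in every library (circles: 7 per group, open for Sal and filled for Coc, Core in blue and Shell in orange), with a line at each group's mean and a cross for Core Ctx_Coc 17-F. Vgf is higher in all 6 Shell groups than in all 6 Core groups (means 6.49 to 8.23 against at most 4.84), and the Bdnf values of Core run from 0.00199 to 0.726.

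Over all conditions and drugs, Shell was compared with Core in 1 fit of 84 libraries by edgeR's quasi-likelihood test, with p-values adjusted by Benjamini-Hochberg over 32145 genes. In that fit 4.56% of genes were called higher in Shell and 8.77% lower, at an adjusted p under 0.05. Of the 10 genes, 4 were called higher and 0 lower, and their median (log2) was 0.27, beside 0.05 over all genes tested. Gfra1, the GDNF co-receptor, had a log2 fold change of 0.42 ± 0.09 (SE, adjusted p = 0.000556), Vgf of 0.53 ± 0.13 (adjusted p = 0.00112), Gdnf of 0.31 ± 0.07 (adjusted p = 0.00109) and Gfra2 of 0.28 ± 0.10 (adjusted p = 0.0377). In linear terms these were 1.33-fold, 1.45-fold, 1.24-fold and 1.21-fold higher in Shell.

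The neurotrophin ligands, their receptors and Ret did not pass in that fit. Bdnf had a log2 fold change of 0.39 ± 0.18 (SE, adjusted p = 0.141), Ntf3 of 0.25 ± 0.18 (0.341) and Ngfr of 0.25 ± 0.14 (0.223). Ret, the kinase that GFRα1 and GFRα2 work with, had 0.07 ± 0.12 (0.717, 95% interval -0.17 to 0.30), Ntrk2 had -0.02 ± 0.08 (0.877, interval -0.17 to 0.13) and Ntrk3 -0.08 ± 0.07 (0.438, interval -0.23 to 0.06). On the log2 CPM scale (TMM-scaled) Gfra1 was 5.81 ± 0.62 (SD, n = 42) in Core and 6.31 ± 0.16 (SD, n = 42) in Shell, and Gdnf 3.08 ± 0.44 and 3.42 ± 0.20. The lowest, median and highest Core levels were 4.12, 6.10 and 6.68 for Gfra1, and the Shell levels 5.87, 6.32 and 6.65, so that Shell lay inside the Core range. For Gdnf they were 1.74, 3.21 and 3.66 in Core and 2.80, 3.45 and 3.69 in Shell. In FPKM, 29 of 42 Shell libraries lay above the Core median for Gdnf and 28 for Gfra1, compared with 41 for Vgf. For Gfra2, also called in that fit, the number was 20. For genes that did not pass it was 37 for Ntrk2, 31 for Ntrk3, 23 for Ngfr, 22 for Bdnf, 17 for Ntf3 and 11 for Ret.

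The FPKM of Gdnf is given by group, as the lowest to the highest of 7 libraries with the median in brackets. In HC, Gdnf had 0.194 to 0.615 (0.377) in Core and 0.368 to 0.503 (0.415) in Shell under Sal, and 0.149 to 0.560 (0.381) in Core and 0.195 to 0.520 (0.390) in Shell under Coc. In Ctx, Gdnf had 0.123 to 0.478 (0.420) in Core and 0.183 to 0.557 (0.372) in Shell under Sal, and 0.117 to 0.817 (0.439) in Core and 0.403 to 0.513 (0.479) in Shell under Coc. In Ext, Gdnf had 0.126 to 0.642 (0.400) in Core and 0.401 to 0.665 (0.481) in Shell under Sal, and 0.0806 to 0.499 (0.373) in Core and 0.257 to 0.645 (0.461) in Shell under Coc. For Gdnf the ranges of Shell and Core overlapped in 6 of 6 combinations. Its co-receptor gene Gfra1 is given in the same way. In HC, Gfra1 had 0.148 to 0.409 (0.318) in Core and 0.301 to 0.374 (0.346) in Shell under Sal, and 0.0816 to 0.394 (0.347) in Core and 0.192 to 0.454 (0.312) in Shell under Coc. In Ctx, Gfra1 had 0.0752 to 0.445 (0.336) in Core and 0.250 to 0.475 (0.330) in Shell under Sal, and 0.0489 to 0.843 (0.355) in Core and 0.333 to 0.458 (0.344) in Shell under Coc. In Ext, Gfra1 had 0.0681 to 0.469 (0.327) in Core and 0.297 to 0.517 (0.431) in Shell under Sal, and 0.0605 to 0.346 (0.269) in Core and 0.219 to 0.525 (0.346) in Shell under Coc. For Gfra1 the ranges of Shell and Core overlapped in 6 of 6 combinations. The BDNF receptor gene Ntrk2 is the steadiest of those shown. In HC, Ntrk2 had 1.01 to 1.18 (1.09) in Core and 1.14 to 1.38 (1.25) in Shell under Sal, and 1.06 to 1.32 (1.22) in Core and 1.15 to 1.42 (1.30) in Shell under Coc. In Ctx, Ntrk2 had 1.01 to 1.39 (1.08) in Core and 1.08 to 1.40 (1.24) in Shell under Sal, and 0.941 to 1.19 (1.12) in Core and 1.09 to 1.29 (1.15) in Shell under Coc. In Ext, Ntrk2 had 0.963 to 1.13 (1.05) in Core and 1.05 to 1.29 (1.11) in Shell under Sal, and 1.02 to 1.17 (1.11) in Core and 1.13 to 1.28 (1.15) in Shell under Coc. For Ntrk2 the ranges of Shell and Core overlapped in 6 of 6 combinations.

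The median background was close in both subregions, at 22.2% of counts in Core and 21.9% in Shell, but 9 of the 10 libraries of lowest background were Core. The fit was therefore repeated with the background level as a covariate. Then 29.5% of all genes were called higher in Shell, and 71.4% of all calls were higher against 34.2% without it. Of the 10 genes 5 were called higher: Vgf at 0.96 ± 0.06 (adjusted p = 5.91e-22), Gfra1 at 0.26 ± 0.05 (adjusted p = 1.95e-05), Ntrk2 at 0.23 ± 0.03 (adjusted p = 1.52e-08), Gdnf at 0.17 ± 0.04 (adjusted p = 0.000842) and Ntrk3 at 0.15 ± 0.03 (adjusted p = 0.000166). The direction of both Trk receptors thus depended on this choice. Gfra2 no longer passed (0.12 ± 0.05, adjusted p = 0.0535), nor did Bdnf (0.12 ± 0.07, 0.202), while Ntf3 went to -0.04 ± 0.06 and Ret to -0.14 ± 0.07. Of the 3 genes called in both fits the estimate for Vgf was higher with the covariate, and those for Gdnf and Gfra1 were lower.

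Without the library Core Ctx_Coc 17-F, 12.6% of all genes were called higher in Shell, and 5 of the 10. Bdnf then passed, at 0.47 ± 0.18 (adjusted p = 0.0397), beside Gfra1 (0.45), Vgf (0.50), Gdnf (0.32) and Gfra2 (0.32). Within the 60 libraries with a plain title number, in which 2.75% of genes were called higher, Vgf (0.59, adjusted p = 0.000156), Gdnf (0.23, 0.0173) and Gfra1 (0.27, 0.0266) passed, and Gfra2 did not (0.13, 0.34). The first part of a plain title number is its series, and each of these series held only Core or only Shell. Subregion and series therefore cannot be told apart in those 60 libraries. Within the 24 libraries whose number ends in F, which hold both subregions, 0.0506% of genes and 0 of the 10 were called higher. Leaving 17-F out of these gave 0.876% of all genes and 2 of the 10, Gfra1 (1.08, adjusted p = 0.0131) and Gfra2 (0.92, 0.0494). Vgf had 0.35 and 0.19 in these 2 fits, with a median over all genes of 0.26 and 0.40. In the 11 Core libraries of this set other than 17-F the FPKM of Vgf was 4.75 ± 0.902 (SD), and in the 12 Shell libraries 7.17 ± 1.70 (SD), so that the difference in FPKM was present in this set too.

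**Figure D3:**
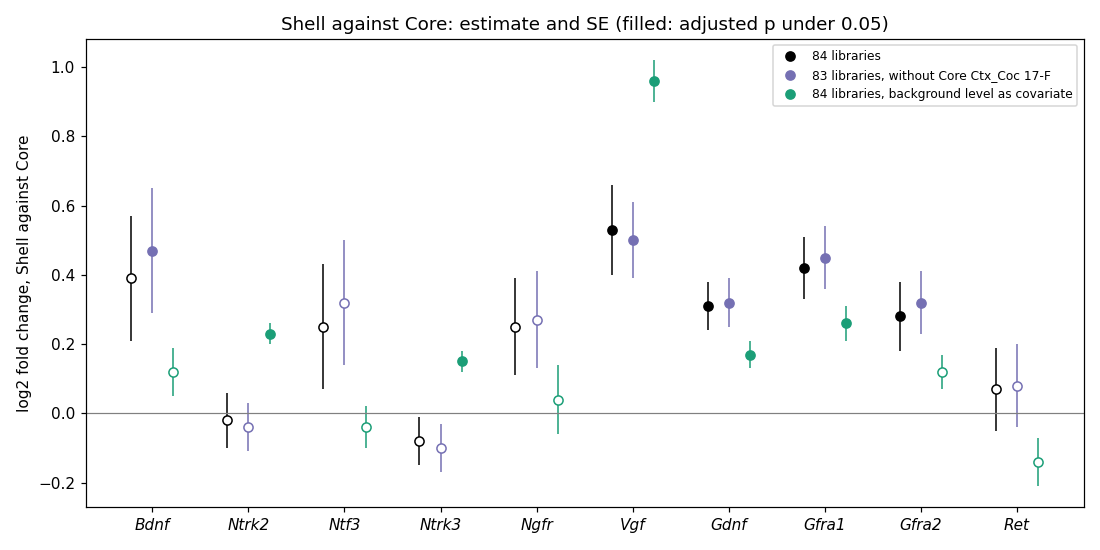
Log2 fold change of Shell against Core for each of the 10 genes (points, with bars of 1 SE) in 3 fits: 84 libraries, 83 libraries without Core Ctx_Coc 17-F, and 84 libraries with the background level as a covariate. Filled points passed an adjusted p of 0.05. Vgf, Gdnf and Gfra1 are filled in all 3, and Vgf moves from 0.53 to 0.96 with the covariate.

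Tested separately in each of the 6 combinations, none of the 10 genes was called between Shell and Core, with 60 estimates, 7 of them at an unadjusted p under 0.05 and the lowest adjusted p at 0.164, for Gdnf in Ext_Coc (0.50 ± 0.18). The share of all genes called in either direction was 1.71% in Ext_Coc, 1.15% in Ext_Sal, 1.52% in HC_Coc, 0.946% in HC_Sal, 0.109% in Ctx_Coc and 1.65% in Ctx_Sal. Vgf, Gdnf, Gfra1, Gfra2, Bdnf and Ngfr were above 0 in 6 of 6, with log2 fold changes of 0.30 to 0.78 for Vgf, 0.18 to 0.50 for Gdnf and 0.27 to 0.59 for Gfra1. With the background covariate the shares of all genes called were 5.61%, 5.10%, 7.29%, 4.68%, 15.5% and 23.6% in the same order, and Vgf was called in 6 of 6 with log2 fold changes of 0.86 to 1.15 (adjusted p from 4.68e-07 to 3.23e-05). Ntrk2 was called higher in 3 of 6 (0.18 to 0.28), and Ntrk3, Gdnf and Gfra1 in 1 each. Ret was below 0 in 6 of 6 (-0.51 to -0.02) and called lower in 1. No difference of drug effects between Shell and Core was called for any of the 10 genes or any other gene (0.00% in each of 3 comparisons).

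Coc was compared with Sal within each condition, which is not itself the study's comparison of cocaine withdrawal with extinction. Across the 6 contrasts of Coc against Sal within a condition, 0 of 60 estimates for the 10 genes were called, 0 had an unadjusted p under 0.05, and the lowest adjusted p was 0.433. In each of these contrasts edgeR also called 0.00% of all genes. At an unadjusted p under 0.05 there were 180 genes in Core Ext, 186 in Core HC and 3407 in Core Ctx, of 31370 tested. In Shell there were 486 in Ext, 414 in HC and 1492 in Ctx, of 30911 tested. Without any effect, a calibrated test puts on average a share of 0.05 under this threshold. Ext and HC lay well below that share in both subregions. The 0 of 60 estimates for the 10 genes is to be read beside this. DESeq2's Wald test called 0 of the 10 genes as well.

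Bdnf, the member most studied after cocaine, had in Core Ext an FPKM of 0.00848 to 0.235 under Coc (median 0.180) and 0.00199 to 0.284 under Sal (0.197). In Core HC it had 0.0179 to 0.309 (0.215) and 0.0571 to 0.297 (0.192), and in Core Ctx 0.00529 to 0.726 (0.221) and 0.0191 to 0.243 (0.182). Single libraries near 0 stand beside libraries near the group's median in all but 1 of these groups, and Coc and Sal overlap in each condition. In Shell the values were 0.105 to 0.280 (0.224) and 0.131 to 0.411 (0.193) in Ext, 0.0161 to 0.242 (0.174) and 0.115 to 0.274 (0.165) in HC, and 0.167 to 0.224 (0.200) and 0.0331 to 0.326 (0.195) in Ctx. The log2 fold changes of Coc against Sal were -0.05 (95% interval -1.15 to 1.06), -0.38 (-1.48 to 0.71) and 0.56 (-0.52 to 1.65) in Core Ext, HC and Ctx, and 0.07 (-0.42 to 0.56), -0.13 (-0.63 to 0.37) and 0.00 (-0.51 to 0.51) in Shell. The largest of these, in Core Ctx, was -0.07 without the library 17-F. For Ntf3, which had 0.57 in the same contrast, it was 0.04 without that library. With intervals of this width, a change of 1 on the log2 scale lay inside the interval in Core Ext in either direction, and so was not detectable there.

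For Vgf, which had the smallest share of counts expected from background, the contrasts of Coc against Sal were 0.28 (-0.37 to 0.94), 0.03 (-0.63 to 0.69) and -0.37 (-1.03 to 0.29) in Core Ext, HC and Ctx, and 0.24 (-0.14 to 0.63), 0.03 (-0.35 to 0.41) and -0.06 (-0.44 to 0.33) in Shell. None passed (adjusted p from 0.477 to 0.998), and with the background covariate the sign turned in Core HC (-0.36), Shell HC (-0.21) and Shell Ctx (0.15). For the receptors Ntrk2 and Ntrk3 the Shell intervals were narrower: Ntrk2 had 0.10 (-0.14 to 0.35) in Ext, 0.13 (-0.12 to 0.37) in HC and -0.20 (-0.44 to 0.05) in Ctx, and Ntrk3 had 0.00 (-0.21 to 0.21), 0.11 (-0.10 to 0.32) and -0.15 (-0.36 to 0.07). The GDNF family genes in Shell Ext had -0.10 (-0.29 to 0.10) for Gdnf, -0.16 (-0.33 to 0.02) for Gfra1, -0.12 (-0.34 to 0.10) for Gfra2 and -0.07 (-0.35 to 0.20) for Ret. For these 6 genes the Shell intervals over the 3 conditions lay between -0.45 and 0.50.

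**Figure D4:**
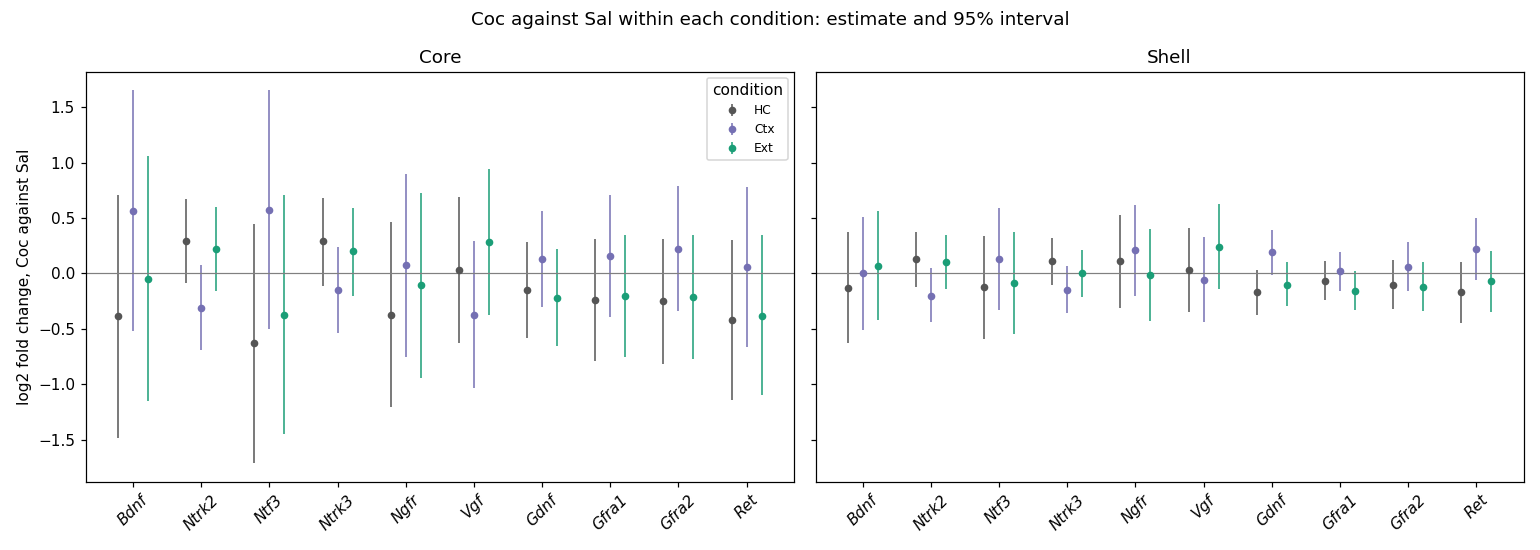
Log2 fold change of Coc against Sal (points) with its 95% interval (bars) for each gene in Core and Shell, within HC, Ctx and Ext. Every interval includes 0, and those of Core are wider than those of Shell for every gene.

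Over the 32 comparisons within a subregion (drug, condition, and differences of drug effects), 0 of 320 estimates for the 10 genes were called, and 16 had an unadjusted p under 0.05. Of all genes, 0.00% were called in each of these but 1, Ext against HC in Shell averaged over drugs, in which 1 of 30911 genes (0.00324%) was. In that comparison Ntrk2 had a log2 fold change of -0.29 ± 0.09 (SE), Vgf -0.37 ± 0.14 and Ntrk3 -0.20 ± 0.08, each with an adjusted p of 0.208. The FPKM of Vgf was 6.91 ± 1.43 (SD, n = 14) in Shell Ext and 8.04 ± 0.925 (SD, n = 14) in Shell HC, and that of Ntrk2 1.17 ± 0.0798 and 1.28 ± 0.0956. The background was 26.4% ± 10.2 of counts in Shell Ext and 18.8% ± 6.46 in Shell HC, and with it as a covariate the 3 values were -0.13, -0.14 and -0.07. Against HC, Ctx in Shell gave -0.31 ± 0.14 for Vgf (adjusted p = 0.716). Withdrawal against extinction would be Ext against HC within Coc, if HC stands for withdrawal, which the labels do not spell out. There the 10 genes had log2 fold changes of -0.20 to 0.08 in Core, with 0 at an unadjusted p under 0.05. In Shell they had -0.30 to 0.34, with 2 under it and a lowest adjusted p of 0.464 in edgeR. Of all genes, 109 of 31370 in Core and 2603 of 30911 in Shell were under it.

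For Gdnf in Shell, the effect of Coc against Sal differed between Ctx and HC by 0.36 ± 0.14 (adjusted p = 0.505), from -0.17 in HC to 0.19 in Ctx. In Core the same difference was -0.60 ± 0.28 for Ntrk2 (adjusted p = 0.351), and -0.45 without the library 17-F. None of these passed the adjustment over all genes. When the 12 groups were ordered by mean FPKM, 0 of the 11 steps between neighbouring groups exceeded the larger SD of the 2 groups for any of the 10 genes. For Vgf the order ran from Shell HC_Sal, at 8.23 ± 0.744, down through all 6 Shell groups to Core HC_Sal, at 4.84 ± 0.762, and ended with Core Ctx_Coc, at 3.77 ± 1.59. Without 17-F the mean of Core Ctx_Coc was 4.24 ± 1.08 (SD, n = 6), above that of Core Ext_Sal at 4.18, so it was not the lowest. For Bdnf, Ntf3, Gfra2 and Ret the highest mean was that of Core Ctx_Coc, the group that holds 17-F. Without 17-F its means for Bdnf and Ntf3 were 0.170 and 0.294, below Shell Ext_Sal at 0.219 and 0.361. For these 4 genes and for Ngfr, Gdnf and Gfra1 the lowest mean was that of Core Ext_Coc. Mean background was 14.7% of counts in Core Ext_Coc, 13.85% in Core Ctx_Sal and 32.3% in Core Ctx_Coc (21.7% without 17-F). Its part in this order was not tested.

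Of 88 other genes of both pathways, all were tested and 0 were called in the 32 comparisons within subregions. Between the subregions 7 were higher in Shell and 21 lower, where 4.56% and 8.77% of all genes were. With the background covariate 29.5% of all genes were higher, and the counts below under that covariate are to be read beside this share. Among 11 other neurotrophin ligands, receptors and co-receptors 1 was higher and 2 lower. Sort1, the sorting receptor for pro-neurotrophins, was 1.44-fold lower (adjusted p = 0.00012), and Traf6, an adaptor of p75, 1.25-fold lower (adjusted p = 0.000218). Among 11 further GDNF family genes 1 was higher and 2 lower: Gfral, a receptor of this family, had 0.40 ± 0.08, Ncam1, which can bind GDNF without Ret, -0.33 ± 0.10, and Gas1, -0.44 ± 0.13. With the background covariate Gfral came to 0.24 (adjusted p = 3.68e-07) and Ncam1 to 0.01 (adjusted p = 0.843). The share of Gfral counts expected from background is not given here, so whether they stand above it cannot be told.

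Among 13 genes for cleavage, sorting and release of pro-neurotrophins 3 were higher and 1 lower in Shell. Pcsk1, the convertase of secretory granules that cuts pro-hormones, was higher by 0.38 ± 0.06 (adjusted p = 2.45e-07) and Cadps2, which primes dense-core vesicles for release, by 0.52 ± 0.11 (adjusted p = 0.000239). Both passed with the background covariate too, at 0.47 and 0.34. Among 34 adaptors and kinases downstream of Trk and Ret 1 was higher and 11 lower, led by Gab1, a docking adaptor, at 1.90-fold lower (log2 -0.93 ± 0.08, adjusted p = 1.74e-16), Rps6ka1, a kinase of the ERK path, at -0.37 ± 0.04, and Shc3, a neuronal Trk adaptor, at -0.35 ± 0.06. With the background covariate this list had 17 higher and 6 lower and its median went from -0.14 to 0.09, while Gab1 had -0.68, Rps6ka1 -0.35 and Shc3 -0.19. Gab1 and the 6 oligodendrocyte markers were lower in Shell together, and the part of these cells in that difference was not tested.

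Among 19 feedback inhibitors and activity-induced targets 1 was higher and 5 lower in Shell, with 6 higher and 2 lower once the background was a covariate. Egr3, an early response transcription factor, was 1.76-fold lower (log2 -0.82 ± 0.14, adjusted p = 3.62e-06), Spred1, an inhibitor of Ras signalling, 1.43-fold lower and Npy, a neuropeptide that BDNF induces, 1.46-fold lower. With the covariate Egr3 had -0.37 (adjusted p = 2.29e-05), Spred1 -0.10 and Npy -0.12, the last 2 no longer passing. Vgf and Egr3, both induced by activity, thus had opposite directions between Shell and Core.

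Likeness between genes was described over 83 libraries, without 17-F, as Pearson's r of log2 CPM once group, series and background had been taken out, among 15244 genes. All values of a library share its depth. The median share of counts expected from background was 41.6% to 99.7% for Bdnf, Ntf3, Ngfr, Gdnf, Gfra1, Gfra2 and Ret. The part of any background left over in these r was not tested. The 3 genes most like Ntrk3 were Nrxn3 (0.94), Lsamp (0.92) and Mdga2 (0.90), and those most like Ntrk2 were Trim9 (0.86), Wnk2 (0.84) and Scn8a (0.84). Vgf was most like Phlda1 (0.76), Rasl10b (0.72) and Mn1 (0.71). Bdnf was most like Myh8 (0.83), Ptpn3 (0.83) and Bmper (0.80), Ntf3 like Cdhr3 (0.89), Cd247 (0.89) and Trpm1 (0.88), and Ngfr like Acacb (0.77), Elfn1 (0.75) and Tmem266 (0.75). Gdnf was most like Evc (0.70), Tex29 (0.69) and Ppara (0.68), Gfra1 like Zfp618 (0.81), Adcy7 (0.80) and Ank1 (0.79), Gfra2 like Gprin2 (0.86), Adcy7 (0.84) and Tox2 (0.84), and Ret like Tspan18 (0.89), Kcp (0.86) and Col2a1 (0.86). Among the 10 genes themselves the highest values were 0.78 for Ntf3 with Ret and 0.74 for Gfra1 with Gfra2, while Bdnf with its receptor gene Ntrk2 had 0.50, Ntf3 with Ntrk3 0.02, Gdnf with Gfra1 0.51 and Gdnf with Ret 0.62.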

How the data were processed

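Libraries were made from total RNA with a stranded low-input kit, per the labels' protocols, so they also hold unspliced RNA. The deposited counts are whole numbers per gene, which the authors made with featureCounts on mRatBN7.2 (from the submitters' processing notes). Not given in the sources used here: aligner, annotation and strand setting, so reads of antisense or overlapping genes cannot be told apart. The deposited FPKM values come from the same counts, and count and FPKM together gave each gene's length. The table had 0 unused columns.

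The members, lists and tests were chosen with earlier results of these data known. Named are every member, at most 3 called genes per pathway list (those of lowest p), and the 3 genes most like each member. Some genes that this rule would name are not reported here.

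Genes passing edgeR's filterByExpr were TMM-scaled and compared in edgeR 4.0.16 (R 4.3.3) by its two-sided quasi-likelihood test. The threshold was 0.05 after adjusting p-values by Benjamini-Hochberg. Fits within a subregion had 6 groups and the series as covariate. The Shell against Core fit had 12 groups and, as covariate, only whether a number ends in F. It was thus not adjusted for the single numbered series. Median background was 8.60% and 27.2% of counts in Core series 1 and 2, and 19.5% and 25.35% in Shell series 3 and 4. In the F libraries it was 3.74% in Core and 19.5% in Shell. Levels are log2 CPM with a prior count of 2. Intervals of 95% are normal, from the SE. DESeq2 1.42.0, other filters, covariates, subsets of libraries and subtraction of the background were alternatives. The script was checked on simulated counts. Promoters are RefSeq's (GRCr8).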

Additional observations from a re-analysis of the deposited data

Results flagged for a closer look

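In 120 groups of 7 libraries (10 genes in 12 groups), 23 had a library set apart from the other 6 in log2 CPM (Dixon's ratio above its 95% critical value), where chance gives about 1 in 20. The 10 genes share the same libraries, so the 120 are not independent and the number 23 is not a test against chance. Core Ctx_Coc 19-F, with a background of 1.58%, was lowest in its group for Bdnf (-0.96, group median 3.24), Ntf3 (0.97), Ngfr (-0.01), Gdnf (2.22), Gfra1 (4.12), Gfra2 (3.38) and Ret (2.27). Core Ext_Sal 3-F (background 1.71%) was lowest for Bdnf (-1.92), Ntf3 (0.68) and Ngfr (-0.10). Shell HC_Coc 6-F (2.13%) was lowest for Bdnf (0.37), Ntf3 (1.00) and Ret (2.55) and highest for Ntrk3 (9.29). Shell Ctx_Sal 24-F (5.22%) was lowest for Bdnf (1.33) and Ntf3 (2.84) and highest for Ntrk3 (9.15), and Core HC_Sal 15-F (5.26%) was lowest for Gfra2 (4.22).

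The others were Vgf in Shell Ext_Sal 12-F, the lowest at 4.07 with a background of 52.4%, Bdnf in Shell Ctx_Coc 20-F (3.01), Ngfr in Shell Ext_Sal 4-4 (1.96), Gdnf in Shell Ext_Coc 3-2 (2.94) and Ret in Shell HC_Sal 4-11 (3.96). The part of the background in these values was not tested.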

How the results depend on the processing

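Depth (13.6 to 22.5 M counts) leaves Bdnf at a median of 15.5 counts where background is low. Of Shell against Core, 4 of the 10 genes were called higher in the fit reported, 0 in the F libraries alone and 2 in these without 17-F, and 3 to 6 in the other fits. Ret was the 1 gene called lower, with the background covariate and without 17-F (-0.18). Over all genes, 1465 were higher and 2818 lower, against 4055 and 4399 without 17-F, 9488 and 3796 with the covariate, 880 and 2263 in the numbered libraries, 17 and 59 in the F libraries, 298 and 416 in these without 17-F, and 2666 and 1961 after background subtraction, which was chosen after seeing the data. Within subregions 0 of the 10 genes were called in every alternative run. The cause of the changes below was not tested.

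Signs turned as follows, in log2 fold change. Shell against Core for Ntrk2 became 0.01 with DESeq2's size factors and with its Wald test, 0.00 in the numbered libraries, 0.23 with the covariate (0.22 without 17-F) and 0.20 after subtraction (0.18 without 17-F, 0.20 at the rate of long receptor genes). Ntrk3 became 0.15 and 0.14 with the covariate, and 0.12, 0.10 and 0.12 after subtraction. Ntf3 became -0.04 and -0.06 with the covariate. Ret became -0.14 and -0.18 with the covariate, -0.09 in the numbered libraries and -0.09, -0.14 and -0.04 after subtraction.

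For Coc against Sal, Bdnf in Core Ext became 0.28 with the covariate (0.28 without 17-F), 0.36 in the numbered libraries and 1.37 after subtraction. In Core HC the same 4 settings gave 0.02, 0.03, 0.19 and 0.68. In Core Ctx the covariate gave -0.55 (-0.51 without 17-F), leaving out 17-F alone -0.07 and subtraction -2.83. In Shell HC the covariate gave 0.05, the numbered libraries 0.02 and subtraction 0.05, and in Shell Ctx the Wald test gave 0.00 and a fit of the 2 groups 0.01. Vgf in Core HC became -0.36, -0.30 (without 17-F), -0.12 and -0.14, and in Core Ctx 0.06 with the covariate and without 17-F. Vgf in Shell HC became -0.21, -0.09 and -0.10 and in Shell Ctx 0.15, 0.14 and 0.09 (covariate, numbered, subtraction). Ntf3 in Core Ctx became -0.51 and -0.45 with the covariate.

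With the 30 numbered Core and Shell libraries paired by title as a replicate block, 3 of the 10 genes (Vgf 0.67, Gdnf 0.25, Gfra1 0.31) and 1390 genes in all were higher in Shell and 2146 lower. Ntrk2 became 0.03 and Ret -0.03. Each pair joins a Core series with a different Shell series, so subregion and series cannot be told apart here either. Deviations of libraries with the same number correlated at -0.286 to 0.504, with a median of 0.138 against -0.00611 for other pairings, and 10 of 30 Core libraries correlated best with their own number, a hint of pairing from the data. The labels do not state it and only 18 of 30 correlations were above 0.1, so the reported fit has no block.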
